A study of Mus musculus with 4 samples.

Results

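The miR-23, miR-27 and miR-24 miRNAs were followed in the stromal vascular fraction (SVF) of visceral white adipose tissue (visWAT) under β3-adrenoceptor stimulation. The members were the 5 main mature products of the miR-23a-27a-24-2 and miR-23b-27b-24-1 clusters, taken by name from the array: mmu-miR-23a-3p, mmu-miR-23b-3p, mmu-miR-27a-3p, mmu-miR-27b-3p and mmu-miR-24-3p. They are 5 of the 1247 mouse miRNAs on the array, and all 5 were among the 425 miRNAs that were measured well enough to be tested.

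A miRNA is a short RNA that guides Argonaute proteins to messenger RNAs, which are then translated less or degraded. Target choice rests mainly on the seed, a short run of bases near the 5′ end of the miRNA, so that miRNAs with one seed share many targets. The miR-27 family is known as a brake on fat cell formation, since it represses Pparg, the master transcription factor of adipocytes, and Prdm16, a transcriptional regulator of the brown and beige fat programme. The miR-23 family is known for repressing glutaminase, an enzyme of glutamine use, and miR-24 for restraining cell cycle genes. Both clusters are also known for their expression in endothelial cells and for their part in vessel growth.

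The mature sequences of 4 members are shown because their seeds decide which members can be expected to share targets. They are the RefSeq sequences of the GRCm38.p6 build, written 5′ to 3′, with the seed (bases 2 to 8) in capitals.
mmu-miR-23a-3p: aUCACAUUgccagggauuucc
mmu-miR-27a-3p: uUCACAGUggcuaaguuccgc
mmu-miR-27b-3p: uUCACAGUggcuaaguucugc
mmu-miR-24-3p: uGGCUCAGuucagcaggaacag

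The miR-27 paralogs carried one seed and differed at 1 base, C19U counted from the 5′ end (miR-27a first). No tested miRNA outside the members shared a seed with miR-23a-3p, miR-27a-3p, miR-27b-3p or miR-24-3p, among the 339 tested miRNAs that had a RefSeq mature sequence. The array read each member with 2 probes of different length. The longer probes are shown because they tell how far the array could keep the paralogs apart. The base in capitals is the only one that differs from the paralog's probe over the bases that both probes hold, the miR-23a-3p probe being 1 base longer than that of miR-23b-3p.
mmu-miR-23a-3p probe, 18 bases: ggAaatccctggcaatgt
mmu-miR-23b-3p probe, 17 bases: ggTaatccctggcaatg
mmu-miR-27a-3p probe, 17 bases: gcGgaacttagccactg
mmu-miR-27b-3p probe, 17 bases: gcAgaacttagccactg
mmu-miR-24-3p probe, 18 bases: ctgttcctgctgaactga

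The probes of miR-23a-3p and miR-23b-3p thus differed by A3T and those of miR-27a-3p and miR-27b-3p by G3A, counted from the 5′ end of the probe, with the base of the a paralog first. How much of each paralog bound to the probe of the other was not tested.

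In RefSeq's GRCm38.p6 annotation the miR-23a cluster lies on the plus strand of chromosome 8 and overlaps no other gene apart from Mir3074-2, a miRNA hairpin on the opposite strand of Mir24-2. The hairpins are Mir23a at chr8:84208518-84208592, Mir27a at chr8:84208672-84208758 and Mir24-2 at chr8:84208815-84208921, together 404 bases, and the nearest protein-coding gene, Zswim4, is 2021 bases away. The miR-23b cluster lies on the plus strand of chromosome 13, within the span of the protein-coding gene Aopep. Its hairpins are Mir23b at chr13:63300484-63300557, Mir27b at chr13:63300712-63300784 and Mir24-1 at chr13:63301208-63301275, together 792 bases, with Mir3074-1 opposite Mir24-1. The mature miR-24-3p is annotated at both loci, so that its signal cannot be assigned to either cluster.

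RNA was measured on 4 one-colour (Cy3) Agilent miRNA arrays, 2 from vehicle-treated and 2 from CL-316243-treated mice. All mice were C57/BL6 females aged 8 weeks, kept at room temperature on standard diet. One group received 1 mg/kg of CL-316243 (CL), an agonist of the β3-adrenoceptor, for 3 days and the other received its solvent, PBS. The labels describe subcutaneous treatment and the study's methods intraperitoneal injection. Those methods also describe moving mice to thermoneutral conditions before experiments, so the housing temperature of these mice is not certain. The SVF is the pellet of stromal, vascular and blood-derived cells that remains when floating adipocytes are removed from collagenase-digested fat. Each sample was pooled from several mice, so that the spread between arrays is that between pools. In such bulk RNA, fewer cells of a type and less of a miRNA per cell cannot be told apart. The values below are log2 signals after background correction and quantile normalization of the spots, and differences are CL minus vehicle on the log2 scale.

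The scanner software detected 386 to 431 miRNAs per array, no spot was saturated, and the mean signal of negative control spots lay between 31.7 and 38.6. The vehicle arrays occupied row 1 of the slide and the CL arrays row 2, and slide row and treatment cannot be told apart. Column 3 held replicate 1 and column 4 replicate 2 of each group, and values with the column as a block are given beside the main ones. The precision of all values is limited by the number of arrays: an exact permutation over 2 arrays against 2 has 0.3333 as its smallest p.

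Of the 5 members, 4 gave lower signals on both CL arrays than on both vehicle arrays, and miR-27a-3p did not. The difference was largest for miR-23b-3p, followed by miR-24-3p, miR-27b-3p and miR-23a-3p, an order that changed with the processing. In the deposited table miR-24-3p had the largest difference (−0.51, against −0.36 for miR-23b-3p), as it had with the scanner's total (−0.44 against −0.36). Without normalization between arrays miR-24-3p (−0.41) came after miR-27b-3p (−0.47) and miR-23a-3p (−0.45). After Benjamini-Hochberg adjustment over the 425 miRNAs, 0 members were below 0.05 in the moderated test of limma, and so were 0% of all tested miRNAs, with 0.0880 as the smallest adjusted p. At an unadjusted threshold of 0.05, limma called 2 of the 5 members lower, miR-23b-3p and miR-24-3p, against 16.2% of all tested miRNAs, and called 0 members higher, against 18.8%. Groups that did not overlap, with CL lower, were seen for 4 of 5 members against 34.8% of all tested miRNAs, and with CL higher for 0 members against 38.1%. Once the slide column was added as a block, 20.2% of the tested miRNAs were below an adjusted p of 0.05 in limma, among them 0 members.

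**Figure D1:**
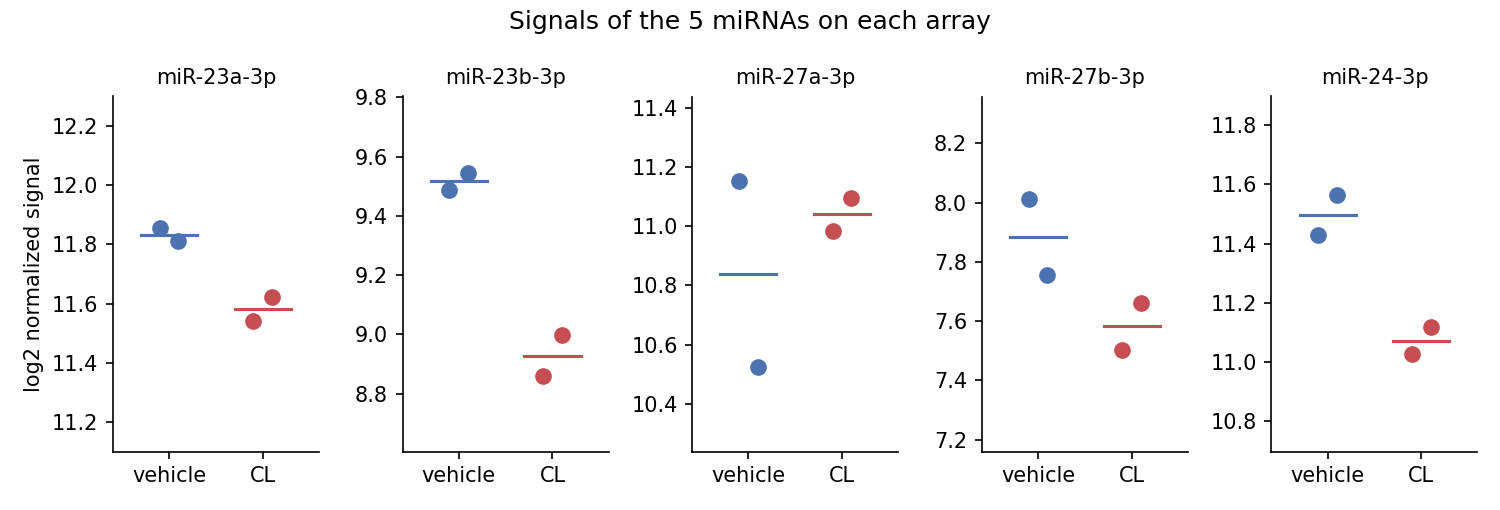
Log2 normalized signal (vertical axis) of each miRNA on the 2 vehicle (blue) and 2 CL arrays (red); points are arrays, replicate 1 left and replicate 2 right, and lines are group means. Every panel spans the same log2 range around its own centre. The CL points lie below the vehicle points in each panel except that of miR-27a-3p, where both CL arrays fall between the vehicle arrays.

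Of the miR-23 paralogs, miR-23b-3p, from the chromosome 13 cluster, read 9.49 and 9.55 with vehicle and 8.86 and 9.00 on the CL arrays. The groups were well apart, since the arrays of a group differed by 0.06 and 0.14. The means were 9.52 ± 0.04 (SD, n = 2) for vehicle and 8.93 ± 0.10 (SD, n = 2) for CL, a difference of −0.59 (standard error 0.12, 95% confidence interval −0.92 to −0.26), or 33.5% less signal. The unadjusted p was 0.00681 and the adjusted p 0.101 in limma. With the slide column as a block the adjusted p was 0.0556 in limma, and the differences within columns 3 and 4 were −0.63 and −0.55. The unadjusted call was lost when the processed signals were scaled to their 75th percentile over all probes (−0.47), with the scanner's total per miRNA (−0.36), in the deposited table (−0.36), without CL 1 (−0.52) and without CL 2 (−0.66).

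Its paralog miR-23a-3p, from the chromosome 8 cluster, read 11.86 and 11.81 with vehicle and 11.54 and 11.62 on the CL arrays. The groups did not overlap, but the difference was smaller, −0.25 (standard error 0.12, 95% confidence interval −0.56 to 0.06). The group means were 11.83 ± 0.03 (SD, n = 2) and 11.58 ± 0.06 (SD, n = 2). The adjusted p was 0.196 in limma and 0.321 with the slide column as a block, where the differences within the columns were −0.31 and −0.19. The unadjusted p was 0.0914 in limma, and it fell below 0.05 in 6 of the 21 alternatives. Processing moved the difference from −0.45 without normalization between arrays to −0.11 with the normalized values of the longer probe alone.

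The miR-27 paralogs, the members with the known link to Pparg and Prdm16, had average differences of opposite sign. For miR-27b-3p the vehicle arrays read 8.01 and 7.75 and the CL arrays 7.50 and 7.66. Both CL arrays were lower, although vehicle 2 lay only 0.09 above CL 2. The means of 7.88 ± 0.18 (SD, n = 2) and 7.58 ± 0.11 (SD, n = 2) gave a difference of −0.30 (standard error 0.15, 95% confidence interval −0.71 to 0.10), with an adjusted p of 0.217 in limma and 0.283 with the slide column as a block. Within the columns the differences were −0.51 and −0.09. Without vehicle 1 the difference was −0.17, and without vehicle 2 it was −0.43, which passed the unadjusted threshold of limma.

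For miR-27a-3p the vehicle arrays read 11.15 and 10.52 and the CL arrays 10.98 and 11.09. Over all tested miRNAs the median absolute gap was 0.27 between the vehicle arrays and 0.09 between the CL arrays. For miR-27a-3p the vehicle arrays lay on either side of the CL arrays and 0.63 apart, whereas the CL arrays differed by 0.11. The means were 10.84 ± 0.44 (SD, n = 2) and 11.04 ± 0.08 (SD, n = 2), a difference of 0.20 (standard error 0.24, 95% confidence interval −0.44 to 0.85, adjusted p = 0.580 in limma and 0.558 with the slide column as a block). The sign depended on the vehicle array: within the columns the differences were −0.17 and 0.57. Without vehicle 2 the value was −0.11 (adjusted p = 0.445 in limma), and without vehicle 1 it was 0.51 (adjusted p = 0.0244 in limma).

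The shared product miR-24-3p read 11.43 and 11.57 with vehicle and 11.03 and 11.12 on the CL arrays. The groups were apart by more than either group's own spread. The means of 11.50 ± 0.10 (SD, n = 2) and 11.07 ± 0.06 (SD, n = 2) differed by −0.42 (standard error 0.13, 95% confidence interval −0.76 to −0.09), or 25.5% less signal. The unadjusted p was 0.0235 and the adjusted p 0.113 in limma, with 0.119 for the block, and both columns gave similar differences, −0.40 and −0.45. The unadjusted call was lost with median centring (−0.38), without normalization between arrays (−0.41), with the scanner's total (−0.44) and without CL 1 (−0.38) or CL 2 (−0.47). It was also lost with the processed signals scaled to the 75th percentile, where the value was smallest, −0.20 over detected probes and −0.09 over all probes.

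**Figure D2:**
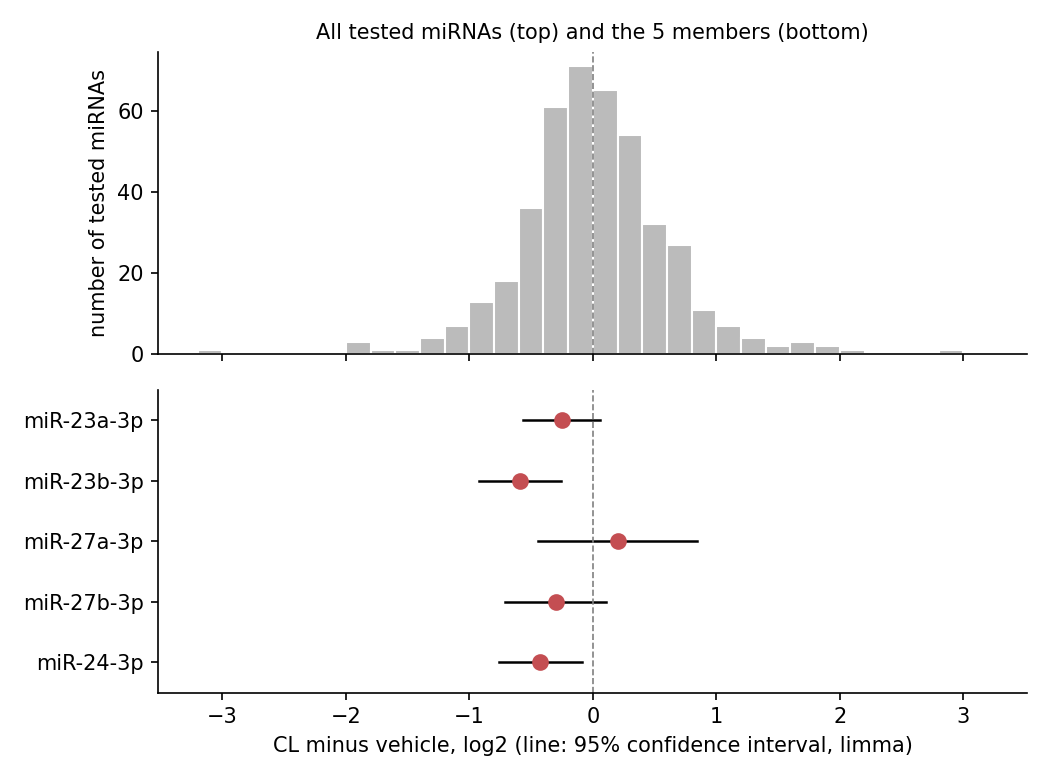
Top, distribution of the CL minus vehicle difference (log2, horizontal axis) over the 425 tested miRNAs; bottom, the same difference for each member (points) with its 95% confidence interval from limma (lines). The intervals of miR-23b-3p (−0.92 to −0.26) and miR-24-3p (−0.76 to −0.09) lie below 0, and all 5 points fall inside the bulk of the distribution above.

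The median difference of the 5 members was −0.30, against −0.01 for all 425 tested miRNAs, whose quartiles were −0.33 and 0.34. In the order of all differences from the lowest, miR-23b-3p stood at percentile 12.1, miR-24-3p at 19.4, miR-27b-3p at 26.9, miR-23a-3p at 29.8 and miR-27a-3p at 66.7. Thus miR-23b-3p and miR-24-3p lay below the lower quartile and the other 3 members between the quartiles. How the arrays are scaled sets the zero of these values. Without normalization between arrays the median of all tested miRNAs was −0.12, and with the 75th percentile over all probes it was 0.12. Relative to that median, the members differed by −0.33 (miR-23a-3p), −0.66 (miR-23b-3p), 0.22 (miR-27a-3p), −0.35 (miR-27b-3p) and −0.29 (miR-24-3p) without normalization. The corresponding values with the 75th percentile were −0.24, −0.58, 0.32, −0.30 and −0.20. miR-23a-3p, miR-23b-3p, miR-27b-3p and miR-24-3p were below the median of all tested miRNAs under all 21 alternatives, and miR-27a-3p under 1, the one without vehicle 2.

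Each member was read by 40 spots, 20 for each of its 2 probes, and every spot was well above background on every array. Spots of one probe share the sample and are not replicates, so they show how evenly an array read a miRNA. Among spots kept on all 4 arrays, the CL mean was below the vehicle mean in 34 of 34 spots for miR-23b-3p, 36 of 36 for miR-24-3p, 36 of 36 for miR-23a-3p and 39 of 39 for miR-27b-3p, and above it in 34 of 34 for miR-27a-3p. The shift of miR-27a-3p between the vehicle arrays was present across its spots as well: the spots of its longer probe had a median of 11.89 (11.67 to 11.95) on vehicle 1 and 11.30 (11.09 to 11.36) on vehicle 2, with no overlap. Both probes of miR-23b-3p gave nearly the same difference, −0.58 for the 16-base and −0.61 for the 17-base probe. Those of miR-24-3p gave −0.43 and −0.42, those of miR-27b-3p −0.27 and −0.32, and those of miR-27a-3p 0.28 and 0.11. After normalization the probes of miR-23a-3p disagreed most, with −0.43 for the 17-base and −0.11 for the 18-base probe. On the 18-base probe only 8 of 18 normalized spots had both CL arrays below both vehicle arrays, against 18 of 18 on the 17-base probe. The normalized spot medians of the 18-base probe were 12.60 and 12.41 for the vehicle arrays and 12.39 and 12.42 for the CL arrays. Before background correction and normalization, both probes had lower median signals on each CL array than on each vehicle array. They were 2417 and 2142 with vehicle and 1489 and 1885 with CL for the 17-base probe. Those of the 18-base probe were 6752 and 6139 against 4188 and 5276. The cause of the disagreement was not tested.

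**Figure D3:**
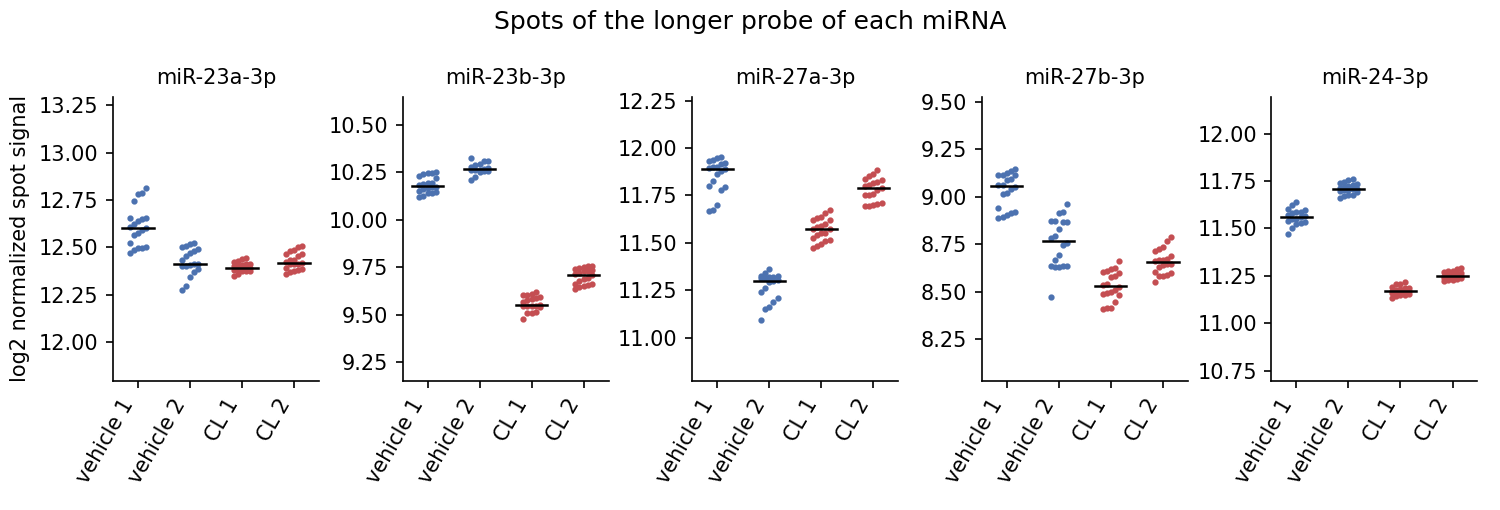
Log2 normalized signal (vertical axis) of each spot of the longer probe of each miRNA on the 4 arrays (points; vehicle blue, CL red), with the median per array (black line). The spots of miR-23b-3p and miR-24-3p are separated by treatment, those of miR-23a-3p overlap between vehicle 2 and the CL arrays, and those of miR-27a-3p are lowest on vehicle 2. Before background correction and normalization, this miR-23a-3p probe had a median signal of 6139 on vehicle 2, against 4188 on CL 1 and 5276 on CL 2.

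A difference between members within an array does not move when the array as a whole is scaled. All 10 pairs of members were therefore compared within each array, and 8 of them did not overlap between treatments. Lack of overlap was common on these arrays: single tested miRNAs showed it in 34.8% with CL lower and in 38.1% with CL higher. The share among pairs of other miRNAs was not tested. The pairs also share members, so the 8 are not independent of each other. The exact two-sided permutation test gives these 8 its smallest p of 0.3333, or 0.417 after Benjamini-Hochberg adjustment over the 10 pairs, so none could pass. Between the miR-23 paralogs, miR-23a-3p minus miR-23b-3p was 2.37 and 2.26 with vehicle and 2.68 and 2.63 with CL, a shift of 0.34. This shift exceeded the spread within the groups (0.10 and 0.06), and it kept its sign in all 15 alternatives run for it, from 0.22 to 0.50. Between the miR-27 paralogs, miR-27a-3p minus miR-27b-3p was 3.14 and 2.77 with vehicle and 3.48 and 3.43 with CL. The shift of 0.50 was also larger than the spread of the vehicle arrays (0.37), with 0.32 to 0.69 over the 15 alternatives. In both families the b paralog, from chromosome 13, thus had the lower difference on average.

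Between the miR-23 and miR-27 members of a cluster the shifts were smaller than the gap between the vehicle arrays. On chromosome 8, miR-23a-3p minus miR-27a-3p was 0.71 and 1.29 with vehicle and 0.56 and 0.53 with CL, a shift of −0.45. The gap between the vehicle arrays was 0.58. On chromosome 13, miR-23b-3p minus miR-27b-3p was 1.47 and 1.79 with vehicle and 1.36 and 1.34 with CL, a shift of −0.29, again within the vehicle gap of 0.32. The first shift ranged from −0.74 (without vehicle 1) to −0.14 (deposited table) over the 15 alternatives, with −0.16 without vehicle 2. The second ranged from −0.45 (without vehicle 1) to −0.01 (deposited table), with −0.07 from the scanner's total and −0.13 without vehicle 2. miR-23b-3p minus miR-27a-3p, across the clusters, had the widest shift of the 10 pairs, −0.79 (−1.13 to −0.37 over the alternatives), and miR-27a-3p minus miR-24-3p one of 0.63 (0.24 to 1.01). The 4 pairs left were within 0.17 of no shift, and each of them turned its sign under some alternative. They were miR-23a-3p minus miR-24-3p (0.17), miR-23b-3p minus miR-24-3p (−0.16), miR-27b-3p minus miR-24-3p (0.12) and miR-23a-3p minus miR-27b-3p (0.05). The CL arrays were nearly alike in all 10 pairs, with spreads of 0.01 to 0.08. This is not particular to the members, since over all tested single miRNAs the median gap was 0.09 between CL and 0.27 between vehicle arrays.

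**Figure D4:**
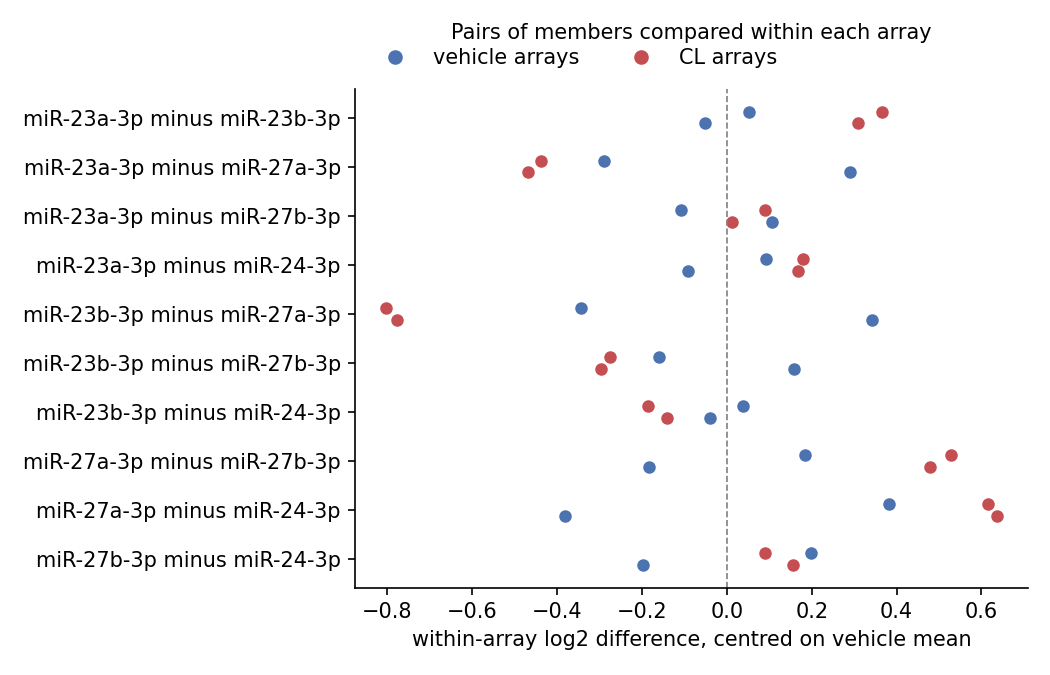
Log2 difference between the members of each pair within an array, centred on the mean of the vehicle arrays (horizontal axis), for vehicle (blue) and CL arrays (red); the upper point of a colour is replicate 1. The CL arrays lie outside the vehicle arrays in 8 of 10 pairs (all single tested miRNAs: 34.8% with CL lower, 38.1% with CL higher). Vehicle arrays are far apart in each pair that holds miR-27a-3p. They are also apart in miR-27b-3p minus miR-24-3p (0.40) and miR-23b-3p minus miR-27b-3p (0.32).

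The hairpins give further products besides the members. Of the passenger arms miR-23a-5p, miR-23b-5p, miR-27a-5p, miR-27b-5p, miR-24-1-5p and miR-24-2-5p, and of the miR-3074 products from the opposite strand, only miR-24-2-5p was detected on all 4 arrays and tested. It comes from the Mir24-2 hairpin of chromosome 8 alone, unlike miR-24-3p. It read 6.00 and 5.12 with vehicle and 5.96 on both CL arrays, so that vehicle 2 stood apart and the groups overlapped. The difference was 0.40 (standard error 0.32, adjusted p = 0.398 in limma), with 0.85 within column 4 and −0.04 within column 3. On vehicle 2, 28 of its 40 spots were well above background, against 40 of 40 on each other array. miR-23a-5p was detected on vehicle 2 alone and miR-24-1-5p on vehicle 1 alone, and the others on no array, so that none of these was tested.

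**Figure D5:**
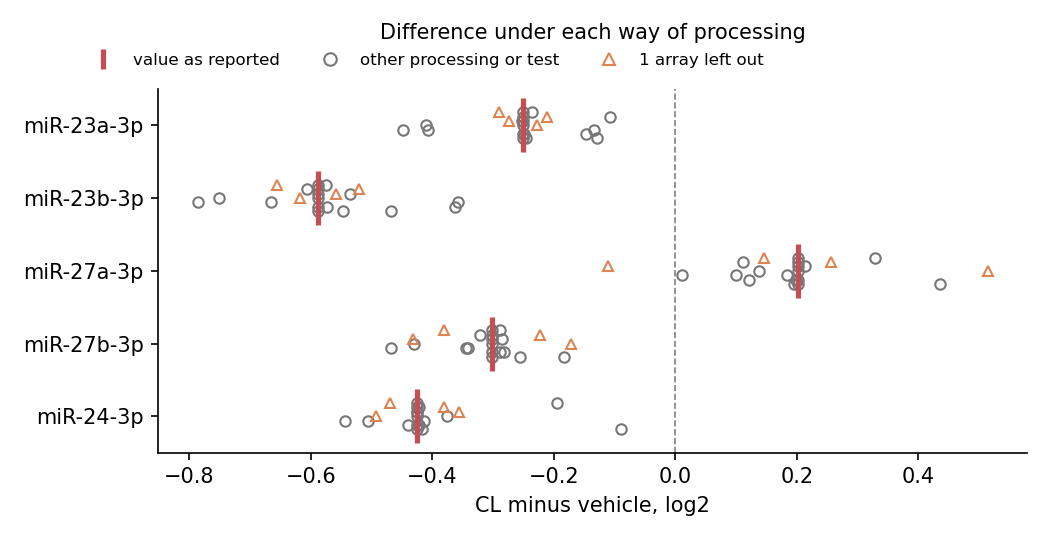
CL minus vehicle difference (log2, horizontal axis) of each member as reported (red bar), under other ways of processing or testing (grey circles) and with 1 array left out (orange triangles). miR-23b-3p ranges from −0.79 to −0.36 and stays below 0, as do miR-24-3p, miR-27b-3p and miR-23a-3p, while miR-27a-3p ranges from −0.11 to 0.51.

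To see whether other miRNAs with a known role in fat cell formation differed in the same way, the members were set beside 25 further miRNAs described as antiadipogenic and 28 described as proadipogenic. Of the antiadipogenic miRNAs 19 were tested, with a median difference of 0.18. At the unadjusted threshold limma called 5 of them higher and 1 lower, and the remaining 13 did not pass. Higher were miR-125b-5p (0.86), miR-106b-5p (0.74), miR-34a-5p (0.72), miR-22-3p (0.45) and miR-130b-3p (0.37), the last from a family that represses Pparg as miR-27 does. The lower one was miR-145a-5p (−0.75), which is also a marker of mural cells. Of the proadipogenic miRNAs 27 were tested, with a median of 0.06, 7 called higher, 4 lower and 16 not called. Among those higher were miR-193a-3p (1.37), miR-148a-3p (1.13), miR-21a-5p (1.00), miR-196a-5p (0.80), which acts in brown adipogenesis, and both arms of miR-455 (0.69), and among those lower were miR-204-5p (−0.87) and miR-30a-5p (−0.44). The share called higher or lower among all tested miRNAs was 18.8% and 16.2%. These counts changed when 1 array was left out, in fits where the spread between arrays comes only from the group that kept 2. Antiadipogenic miRNAs called higher numbered 8 without vehicle 1, 1 without CL 1 and 2 without CL 2, and those called lower 0 without either CL array. Proadipogenic ones called higher numbered 11 without vehicle 1, 4 without CL 1 and 3 without CL 2, and those called lower 7, 1 and 1.

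Markers of several cell types differed between the groups alongside the members, counted here at the unadjusted threshold of 0.05 in limma, which called 18.8% of all tested miRNAs higher and 16.2% lower. None of them passed after adjustment in the model without a block. With the slide column as a block, 20.2% of all tested miRNAs passed an adjusted p of 0.05. Among the tested markers, 2 of 2 endothelial, 1 of 2 mural and 5 of 5 stromal ones then passed. So did 3 of 6 leukocyte and 3 of 3 red cell markers, but 0 of 4 muscle and 0 of 1 epithelial and mesothelial ones. Both endothelial miRNAs were called lower, miR-126-3p by −1.37 and miR-126-5p by −0.80, and the log2 of their summed signal was 13.80 to 13.92 on the vehicle and 12.33 to 12.66 on the CL arrays. Of the mural markers 2 of 4 were tested and 1 was called lower, miR-145a-5p, with miR-143-3p at −0.43, and the summed level was 9.07 to 9.31 against 8.62 to 8.73. Among 5 stromal markers, 4 were called higher, from 0.95 for miR-214-3p to 1.48 for miR-199b-5p, and miR-10b-5p was lower (−1.31), with sums of 11.85 to 12.19 against 12.71 to 12.76. Among 6 leukocyte markers, miR-142-3p and miR-142-5p were higher (2.09 and 1.95) and miR-150-5p was lower (−0.89), with sums of 10.90 to 11.29 against 11.78 to 11.81. All 3 tested red cell markers were higher, from 0.73 for miR-451a to 2.98 for miR-144-3p, with sums of 13.00 to 13.22 against 13.80 to 14.05. With the linear trend on probe base composition and length removed, 1 of these 3 was called. Of 5 epithelial and mesothelial markers 1 was tested, miR-200b-3p, and it was not called (0.24), with a sum of 4.32 to 4.40 against 4.59 to 4.60. None of the 4 skeletal muscle markers was called, and their sum was 7.76 to 8.66 against 8.49 to 8.63. Of the endothelial markers 1 was called without vehicle 1 or without CL 1, of the mural ones 2 without vehicle 2 and 0 without CL 1 or CL 2, and without vehicle 1 all 4 muscle markers and miR-200b-3p were called higher. The part of these cell types in the differences of the members was not tested.

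The tested miRNAs whose pattern over the 4 arrays was nearest to the mean pattern of the members, by Euclidean distance of centred log2 values, were let-7f-5p (distance 0.12), miR-542-3p (0.14), miR-6349 (0.16), miR-30a-5p (0.17) and miR-450b-3p (0.18). Their differences ranged from −0.44 to −0.14. Distances from one member to another ran from 0.17 for miR-23a-3p and miR-27b-3p to 0.93 for miR-23b-3p and miR-27a-3p. They cannot be compared with the distances above, which are to a mean and belong to miRNAs picked as nearest to it.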

How the data were processed

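The authors scanned the arrays, and the deposited scanner files of Feature Extraction 10.7.1.1 give linear intensity values per spot. The deposited table holds the authors' log2 values, with column medians of −3.31, −3.30, −3.20 and −3.26 because undetected miRNAs were set to the lowest value. Over detected miRNAs its ranks followed the sum of the probe signals (Spearman's rho at least 0.998), so it is neither centred per miRNA nor turned in sign, and its exact normalization is not stated. In place of the "oligo" and "samr" packages named in the methods, limma 3.58.1 in R 4.3.3 was used on the deposited intensity values. Mean spot signals were background-corrected with normexp over all spots, control and outlier spots were dropped, spots were quantile-normalized, put on the log2 scale and summarised per miRNA by median polish. Testing was limited to miRNAs that the scanner software called detected on each array of 1 or both groups (lmFit and eBayes, two-sided, Benjamini-Hochberg over 425, threshold 0.05). Quantile normalization assumes alike distributions of signal in both groups. Confidence intervals are at 95%.

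Groups and replicate numbers came from the sample titles. The labels do not say that the numbers pair arrays. The deviations of same-numbered arrays correlated with 0.12, and the numbers coincide with the slide column, so the block is given as a column block. p-values measure only the spread between these arrays. Named miRNAs were the members, the other products of their hairpins, tested miRNAs with a member's seed, up to 8 per adipogenesis list by size among those called without overlap, the 5 nearest patterns and the cell type markers. The members and lists were chosen with earlier results of these data known. RefSeq held a mature sequence for 4 members. The test was checked on simulated arrays. SAM, rebuilt from its published form, and the methods' t-test were among the alternatives.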

Additional observations from a re-analysis of the deposited data

How the results depend on the processing

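Of the 5 members, miR-23a-3p, miR-23b-3p, miR-27b-3p and miR-24-3p kept a negative difference under all 21 alternatives, and miR-27a-3p a positive one under 20. miR-23b-3p passed the adjusted threshold of limma without normalization between arrays (−0.79) and with the trend on probe composition removed (−0.67, adjusted p = 0.0370), so that the number of members past it was 1 under each, against 0. Leaving out 1 array gave −0.29 to −0.21 for miR-23a-3p, −0.66 to −0.52 for miR-23b-3p, −0.11 to 0.51 for miR-27a-3p (−0.11 without vehicle 2, the only reversal), −0.43 to −0.17 for miR-27b-3p and −0.49 to −0.36 for miR-24-3p. The number of members past the adjusted threshold was then 0 to 3, with 3 without vehicle 1 (miR-23b-3p, miR-27a-3p and miR-24-3p). In these fits the lone array is taken to vary like the other group. The standard error of each member was 0.39 without CL 1 or CL 2, and 0.08 to 0.11 without vehicle 1 or vehicle 2. Members lower at the unadjusted threshold numbered 0 to 4 (4 without vehicle 2, 0 without CL 1 or CL 2) and members higher 0 to 1. They numbered 3, with miR-23a-3p as the third, without background correction, with normexp on local background, without a filter, by the methods' t-test and with the composition trend removed. They numbered 1 without normalization, with median centring, with the 75th percentile over detected probes and in the deposited table, and 0 with the 75th percentile over all probes and with the scanner's total. That total differed by over 1% from the sum of the probes for 99 to 114 detected miRNAs per array, though for none of the members. The cause of these changes was not tested.

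With the replicate number, which is the slide column, as a block, 86 of all tested miRNAs passed the adjusted threshold and 0 members did. The number of members called at the unadjusted threshold was 2, as without it, and the block changed no other call of a member. Without a block the count over all miRNAs was 0, while 149 passed the unadjusted one (69 lower, 80 higher). The adjusted count was 64 without normalization, 44 with median centring, 61 and 1 with the 75th percentile over all and over detected probes, 26 with the scanner's total, 7 in the deposited table, 2 with an intensity trend, 51 with the composition trend removed, and 1 to 229 with 1 array left out (229 without vehicle 1). SAM called 28 lower and 32 higher at the unadjusted threshold and the methods' t-test 20 and 32, both with 0 after adjustment. The share of unadjusted calls that were higher was 53.7%, against 34.3% without normalization (46 higher, 88 lower) and 42.6% in the deposited table (46 higher, 62 lower).

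Of the 10 pairs, 4 turned their sign. The shift of miR-23a-3p minus miR-24-3p was −0.034 without normalization and with median centring and −0.040 with either 75th percentile. That of miR-23b-3p minus miR-24-3p was 0.077 with the scanner's total and 0.15 in the deposited table. That of miR-27b-3p minus miR-24-3p was −0.054 without normalization and with median centring and −0.094 with either 75th percentile, and −0.075 to 0.32 with 1 array left out (−0.075 without vehicle 2). That of miR-23a-3p minus miR-27b-3p was −0.066 with the composition trend removed and −0.056 to 0.16 with 1 array left out (−0.056 without vehicle 1).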
